A study of Mus musculus with 6 samples.

Results

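Voltage-gated sodium and calcium channels turn a change of membrane voltage into an ion current. Sodium channels start and carry the action potential. Calcium channels trigger transmitter release at synapses, shape firing and link electrical activity to gene expression. Each channel has 1 large pore-forming subunit (Scn genes ending in a, Cacna1 genes) and auxiliary subunits that set its traffic and gating (Scn genes ending in b, Cacna2d and Cacnb genes). The Cacng genes were named as calcium channel subunits, but most of the brain forms are partners of AMPA-type glutamate receptors. In brain these genes are used mainly by neurons, while oligodendrocyte precursors and astrocytes express some of them.

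The 32 genes described here were taken by symbol: all Scn pore and beta subunit genes and the Cacna1 genes a to i, Cacna2d, Cacnb and Cacng genes that had a probe set with exactly 1 gene symbol, without Scn8a, Scn4b and Cacng4. They are 32 of the 22180 genes that the arrays measured in this way. The symbol rule itself did not use measured values, but it was set with earlier results of these data known. Where a gene had 2 such probe sets, the brighter one over the 6 arrays was used. Family genes without such a probe set were not analysed here.

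The samples were macrodissected lesions of mouse brain, each on 1 Affymetrix array, with 3 lesions of wild type mice and 3 of a transgenic line in which GFAP+ astrocytes that do not proliferate can be eliminated. All animals were lesioned with LPC, a lipid that removes myelin around the injection, at 5 to 6 weeks of age. CID, the compound that sets off ablation, was injected 48 hours later in both genotypes, and brains were taken at 7 days. The sources used here do not name the construct behind the ablation or the strain, nor do they say that the lesions of a group are from different animals. The p-values therefore cover only the spread among these arrays. All levels are log2 intensities, and all differences are transgenic minus wild type. In bulk tissue, fewer cells of a type and less RNA per cell cannot be told apart.

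The labelled tissue, brain, was borne out by its markers: the neuronal gene Snap25 lay between 11.52 and 12.10 on every array. Gfap, the gene that defines the targeted cells, differed by -0.37 (SE 0.233) at an unadjusted p of 0.151 and an adjusted p of 0.695 in limma. Replicates of the transgenic group were less alike than those of the wild type group, with Pearson correlations over all probe sets of 0.928 to 0.968 against 0.980 to 0.984. The groups also differed in sex markers: Xist stood between 9.14 and 9.49 in the wild type arrays and transgenic replicate 2, and at 4.67 and 4.42 in transgenic replicates 1 and 3. Striatal neuron markers were unevenly present, with a list mean of 8.16 and 8.79 in wild type replicates 2 and 3 and between 5.99 and 6.53 on the other arrays. Their part in the channel differences was not tested.

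Setting transgenic against wild type lesions asks whether channel transcripts differ once astrocytes have been targeted. As a family they did not move one way: 17 of the 32 genes had higher and 15 lower means in transgenic lesions, and their median difference was 0.04. Over all 41345 probe sets 48.9% were higher and 51.1% lower, and the median difference was -0.01. The differences of single genes ran from -0.57 for Scn3b to 0.60 for Scn1a. No channel gene passed an adjusted p of 0.05 in limma, and neither did any probe set on the arrays (0%). The smallest adjusted p among the 32 was 0.492.

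At an unadjusted p under 0.05, 6 of the 32 genes differed in limma, or 18.8%, beside 8.87% of all probe sets. Scn1a, Cacnb4 and Cacna1g were higher in transgenic lesions (3 genes, with 4.82% of all probe sets called higher). Scn3b, Cacng5 and Cacna2d4 were lower (3 genes, with 4.05% of all probe sets called lower). In 9 genes the 3 arrays of a group did not overlap with those of the other, or 28.1%, beside 16.1% of all probe sets. These were the same 6 genes and Cacna1c, Cacna1e and Cacna1h, which were lower. That makes 3 genes apart on the higher side (8.54% of all probe sets) and 6 on the lower side (7.60%). Both counts depended on which scaling of the arrays was used. After quantile normalization the same 6 genes (18.8%, beside 9.15% of all probe sets) had an unadjusted p under 0.05 in limma. The groups were then apart in 10 (31.2%, beside 16.6%). After each array was centred on its median, 3 genes (9.38%, beside 8.32% of all probe sets) had an unadjusted p under 0.05. The groups were apart in 4 (12.5%, beside 15.1%). Scn3b, Cacng5 and Cacna2d4 lost that unadjusted p, so that Scn1a, Cacnb4 and Cacna1g were left and no lower gene. The share of the channel genes was then close to or below that of all probe sets. The count by unadjusted p also depended on single arrays. Its share was below that of all probe sets without any 1 wild type array (3.12% to 6.25%, beside 4.91% to 6.76%). The same held without transgenic replicate 3 (3.12%, beside 9.17%). It was above that of all probe sets without transgenic replicate 1 (34.4%, beside 12.5%) or 2 (15.6%, beside 10.1%).

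**Figure D1:**
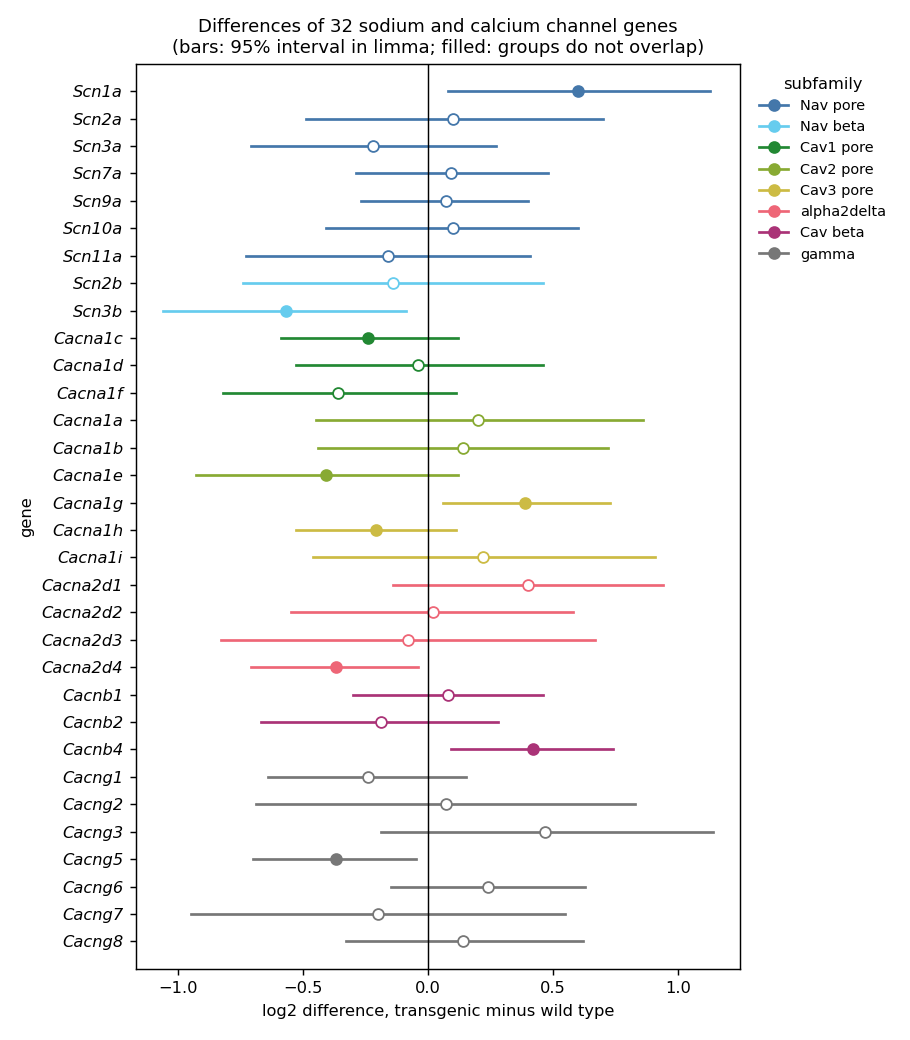
Log2 difference (transgenic minus wild type, x axis) of each of the 32 channel genes (y axis), coloured by subfamily, with the 95% confidence interval from limma; filled circles mark genes whose 3 transgenic arrays lay entirely above or below the 3 wild type arrays. Points lie on both sides of 0 in most subfamilies, from -0.57 for Scn3b to 0.60 for Scn1a.

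**Figure D2:**
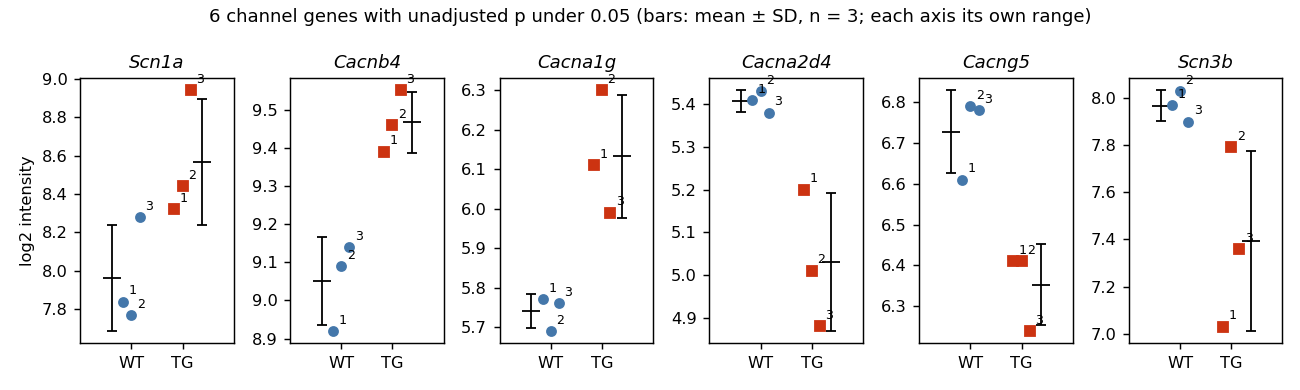
Log2 intensity on each array for the 6 genes with an unadjusted p under 0.05 (blue circles, wild type; red squares, transgenic; numbers are replicates; bars are mean ± SD, n = 3; each panel has its own axis range). The groups do not overlap in any of the 6; Scn1a, Cacnb4 and Cacna1g are higher and Cacna2d4, Cacng5 and Scn3b lower in transgenic lesions.

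Promoter sequence is shown for those of these 6 genes whose RefSeq window farthest upstream (assembly GRCm38.p6) has no other start of the gene within 500 bases, which sets the upstream region of a gene with higher levels, Scn1a, beside that of one with lower levels, Cacng5. Each run is the 250 bases before the start, 5′ to 3′ on the gene's strand, with GC boxes (GGGCGG on either strand) in capitals. Scn1a lies on the minus strand at chr2:66440838-66441087 and Cacng5 on the minus strand at chr11:107915056-107915305.
Scn1a: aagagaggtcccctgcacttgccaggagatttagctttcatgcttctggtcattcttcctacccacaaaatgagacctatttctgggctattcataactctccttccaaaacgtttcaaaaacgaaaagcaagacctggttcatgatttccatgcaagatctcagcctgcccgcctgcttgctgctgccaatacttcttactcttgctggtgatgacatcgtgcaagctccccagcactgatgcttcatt
Cacng5: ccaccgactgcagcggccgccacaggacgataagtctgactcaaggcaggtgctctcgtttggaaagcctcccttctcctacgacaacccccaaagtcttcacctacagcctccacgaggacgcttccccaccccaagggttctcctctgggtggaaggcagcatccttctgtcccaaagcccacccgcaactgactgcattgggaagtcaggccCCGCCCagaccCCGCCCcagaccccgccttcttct
The Scn1a window held 46.8% G and C and 4 CpG dinucleotides with no GC box. The Cacng5 window held 62.0% G and C, 12 CpG dinucleotides and 2 GC boxes. Of the 32 genes, 25 had 34 windows in the table. A GC box was present in 13 of the 34 windows (38.2%), beside 32.7% of all 32851 windows of the same length. More than 60% G and C was found in 13 of them (38.2%), beside 27.0% of all windows. The cyclic AMP response element TGACGTCA was in 0 of the 34 windows and in 1.55% of all. The arrays do not measure promoter activity, and a match is only a description of these letters.

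Pore-forming sodium channel subunits were higher in 5 of 7 genes, with a median difference of 0.09. Scn1a, the channel on which fast-spiking inhibitory interneurons depend, had the largest difference of the 32 genes. Its level was 7.84, 7.77 and 8.28 on wild type arrays 1, 2 and 3 and 8.32, 8.44 and 8.94 on transgenic arrays 1, 2 and 3. Every transgenic array lay above every wild type array, but wild type replicate 3 and transgenic replicate 1 were only 0.05 apart before rounding. The difference of 0.60 (SE 0.222, 95% interval 0.08 to 1.13) was 1.52-fold, at an unadjusted p of 0.0283 and an adjusted p of 0.514 in limma. The unadjusted p was above 0.05 without wild type replicate 1 or 2 or transgenic replicate 3, where the difference was 0.54, 0.51 and 0.42.

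Some markers of interneurons were also higher in transgenic lesions. The parvalbumin gene Pvalb differed by 1.41 (unadjusted p 4.98e-04, adjusted p 0.261 in limma) and Vip by 1.22, whereas Sst differed by -0.15, Gad2 by -0.31 and Lhx6 by 0.06. Of the 7 interneuron markers measured, 5 were higher, 3 of them at an unadjusted p under 0.05, and the list mean on single arrays was 8.09 to 8.43 for the wild type group against 8.62 to 8.86 for the transgenic group. The higher means were not particular to interneurons: their median difference of 0.22 stood beside 0.21 for general neuron markers (12 of 13 higher). For cortical neuron markers it was 0.20 (7 of 8 higher), while striatal neuron markers were lower in 5 of 5, with a median of -1.48. The part of these lists in the Scn1a difference was not tested.

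Scn2a, the main pore subunit of excitatory axons, stood at 9.06, 9.19 and 8.84 in wild type and at 8.57, 9.41 and 9.43 on transgenic arrays 1, 2 and 3. The transgenic arrays lay on both sides of the wild type arrays, and the difference was 0.10 (SE 0.256, adjusted p 0.937 in limma). Scn3a, which is most used in the developing brain, stood at 6.78, 7.32 and 7.34 in wild type and at 6.67, 7.10 and 7.01 in transgenic lesions. Its groups overlapped because wild type replicate 1 was as low as the transgenic arrays, and it differed by -0.22 (SE 0.209).

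The remaining pore subunits were dim. Scn7a, a sodium-sensing relative found in some glia, and Scn9a, Scn10a and Scn11a, channels of peripheral sensory neurons, had means below the median probe set of 5.50. Their differences ran from -0.16 for Scn11a to 0.10 for Scn10a, and the groups overlapped in each. The sensory neuron markers Prph, Avil and Trpv1 were also low, between 4.44 and 5.37 on single arrays. Without detection calls these levels cannot be told from background.

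The 2 measured beta subunits of sodium channels were both lower, with a median difference of -0.36. Scn3b, a beta subunit that binds the pore without a covalent bond and acts on its gating, stood at 7.97, 8.03 and 7.90 in wild type and at 7.03, 7.79 and 7.36 on transgenic arrays 1, 2 and 3. The wild type arrays lay within 0.13 of each other and every transgenic array was below them. The difference of -0.57 (SE 0.207, 95% interval -1.06 to -0.09) was 1.49-fold, at an unadjusted p of 0.0263 and an adjusted p of 0.513 in limma. Without transgenic replicate 1, its lowest array, the difference was -0.39 and the unadjusted p was above 0.05; the same loss of the call followed from leaving out any wild type array or transgenic replicate 3.

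Scn2b, a beta subunit joined to the pore by a disulfide bond, stood at 9.66, 9.68 and 9.66 in wild type and at 8.95, 9.99 and 9.64 on transgenic arrays 1, 2 and 3. Its wild type arrays were almost equal and its transgenic arrays were spread widely around them, with SDs of 0.01 and 0.53. The difference of -0.14 (SE 0.258) turned to 0.15 without transgenic replicate 1.

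L-type calcium channels (Cav1), which couple activity to gene expression, were lower in 3 of 3 genes, with a median difference of -0.24. Cacna1c, the main L-type pore of brain and heart, stood at 7.52, 7.60 and 7.71 in wild type and at 7.18, 7.45 and 7.50 on transgenic arrays 1, 2 and 3. The groups did not overlap, although wild type replicate 1 and transgenic replicate 3 differed by only 0.02. The difference was -0.24 (SE 0.151, 95% interval -0.59 to 0.12, unadjusted p 0.157, adjusted p 0.700 in limma). Cacna1d, the second neuronal L-type pore, differed by -0.04 and turned to 0.18 without transgenic replicate 1. Cacna1f, the pore of retinal photoreceptors, stood at 5.76, 5.44 and 5.52 and at 5.46, 4.86 and 5.32, below the median probe set on average, and differed by -0.36 (SE 0.198).

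Cav2 channels, which open at nerve terminals to release transmitter, differed in both directions, with a median of 0.14 over 3 genes. Cacna1a, the P/Q-type pore, stood at 7.51, 7.54 and 7.87 in wild type and at 7.22, 8.25 and 8.05 on transgenic arrays 1, 2 and 3. Cacna1b, the N-type pore, stood at 6.71, 6.82 and 7.15 and at 6.56, 7.42 and 7.13. In both genes transgenic replicate 1 was the lowest of all arrays and transgenic replicate 2 the highest, and the differences were 0.20 (SE 0.280) and 0.14 (SE 0.246).

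Cacna1e, the R-type pore, stood at 8.20, 8.36 and 8.37 in wild type and at 7.42, 8.18 and 8.12 in transgenic lesions. All transgenic arrays were lower, replicates 2 and 3 by little and replicate 1 by much more. The difference was -0.41 (SE 0.225, 95% interval -0.93 to 0.12, unadjusted p 0.111, adjusted p 0.653 in limma).

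T-type channels (Cav3), which open at low voltage and support burst firing, were split as well. Cacna1g, the T-type pore of thalamic relay neurons among others, stood at 5.77, 5.69 and 5.76 in wild type and at 6.11, 6.30 and 5.99 on transgenic arrays 1, 2 and 3. Every transgenic array was higher, at a level not far above the median probe set. The difference of 0.39 (SE 0.143, 95% interval 0.06 to 0.73) was 1.31-fold, at an unadjusted p of 0.0279 and an adjusted p of 0.514 in limma. Its unadjusted p was above 0.05 without any 1 of the wild type arrays and without transgenic replicate 2, with differences from 0.31 to 0.46 over all single arrays left out.

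Cacna1h, another T-type pore, went the other way, at 6.68, 6.78 and 6.88 in wild type and 6.49, 6.65 and 6.57 in transgenic lesions. The groups did not overlap, with 0.02 between the nearest arrays, and the difference was -0.21 (SE 0.138, unadjusted p 0.170, adjusted p 0.710 in limma). Cacna1i, the third T-type pore, differed by 0.22 (SE 0.292), with its highest level, 7.34, in transgenic replicate 2.

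Among the alpha2delta subunits, which carry calcium channels to the surface, 2 of 4 were higher and 2 lower, with a median of -0.03. Cacna2d1, the target of gabapentin and a receptor for thrombospondins, stood at 8.01, 8.02 and 7.89 in wild type and at 7.86, 8.64 and 8.62 on transgenic arrays 1, 2 and 3. Transgenic replicates 2 and 3 were clearly above the wild type arrays and replicate 1 was below them. The difference was 0.40 (SE 0.231, 95% interval -0.14 to 0.94, unadjusted p 0.125, adjusted p 0.669 in limma), and 0.66 without transgenic replicate 1, where the unadjusted p fell below 0.05.

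Cacna2d3 stood at 7.64, 8.52 and 8.90 in wild type and at 7.99, 8.43 and 8.41 in transgenic lesions. It had the largest wild type SD of the 32 genes, 0.65, and wild type replicate 1 was its lowest array. Cacna2d2 was also lowest in replicate 1 among the wild type arrays, at 5.92, 6.71 and 6.70. On transgenic arrays 1, 2 and 3 it stood at 6.58, 6.51 and 6.29, above wild type replicate 1. The striatal list means on these transgenic arrays were 6.12, 6.53 and 6.11, beside 5.99 in wild type replicate 1. For both genes the higher wild type arrays, replicates 2 and 3, were those with high striatal markers: the dopamine receptor gene Drd2 gave 5.67, 8.11 and 8.68 on wild type arrays 1, 2 and 3. The differences of Cacna2d3 and Cacna2d2 were -0.08 and 0.02, and the part of striatal tissue in them was not tested. Cacna2d4, best known from the retina, stood at 5.41, 5.43 and 5.38 in wild type and at 5.20, 5.01 and 4.88 in transgenic lesions. All transgenic arrays were lower, but the gene lay below the median probe set, and its difference was -0.37 (SE 0.144, unadjusted p 0.0344, adjusted p 0.532 in limma). Leaving out any array other than transgenic replicate 1 took its unadjusted p above 0.05, with differences from -0.39 to -0.30.

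The beta subunits bind the calcium channel pore inside the cell. Cacnb4, the form whose loss causes ataxia and seizures in the lethargic mouse, stood at 8.92, 9.09 and 9.14 in wild type and at 9.39, 9.46 and 9.55 on transgenic arrays 1, 2 and 3. All transgenic arrays were higher, with 0.25 between the nearest arrays of the groups, and the spread within each group was small (SD 0.11 and 0.08). The difference of 0.42 (SE 0.139, 95% interval 0.09 to 0.74) was 1.34-fold, and its unadjusted p of 0.0188 and adjusted p of 0.492 in limma were the smallest of the 32 genes. A second, dimmer probe set of Cacnb4 differed by 0.24 (unadjusted p 0.227 in limma) with overlapping groups. The unadjusted p of the brighter one was above 0.05 without wild type replicate 1 (0.36) or transgenic replicate 3 (0.38), with the differences in parentheses. Cacnb1 differed by 0.08 and Cacnb2 by -0.19, with overlapping groups.

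Of the gamma genes, 4 of 7 were higher and 3 lower, with a median of 0.07. Cacng3, a partner of AMPA receptors in forebrain, had the largest difference of the group. It stood at 8.67, 9.07 and 9.31 in wild type and at 8.96, 9.96 and 9.55 on transgenic arrays 1, 2 and 3, and the groups overlapped through transgenic replicate 1. The difference was 0.47 (SE 0.285, 95% interval -0.19 to 1.14, unadjusted p 0.138, adjusted p 0.686 in limma). Cacng8, a partner of hippocampal and cortical AMPA receptors, stood at 7.62, 7.92 and 7.69 and at 7.55, 8.22 and 7.90, and differed by 0.14 (SE 0.202).

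Cacng5, an atypical AMPA receptor partner, stood at 6.61, 6.79 and 6.78 in wild type and at 6.41, 6.41 and 6.24 on transgenic arrays 1, 2 and 3. The transgenic arrays were all lower, with 0.20 between the nearest arrays. The difference of -0.37 (SE 0.139, 95% interval -0.70 to -0.05) was 1.30-fold, at an unadjusted p of 0.0301 and an adjusted p of 0.518 in limma. It lost that unadjusted p without wild type replicate 2 or 3 or transgenic replicate 3, with differences of -0.34, -0.35 and -0.32. Markers of oligodendrocyte precursors, cells that also carry AMPA receptors and gamma subunits, had lower means in all 6 genes measured, 4 of them at an unadjusted p under 0.05 (Pdgfra at 0.137 and Cspg4 at 0.462 were not among them) and none when adjusted in limma, with list means of 7.26 to 7.60 on the wild type arrays and 6.70 to 7.08 on the transgenic ones. The 6 oligodendrocyte markers differed more, with a median of -0.89, an unadjusted p under 0.05 and no overlap of the groups in each, and no adjusted p below 0.328 in limma. The part of both lists in the Cacng5 difference was not tested.

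Cacng2 (stargazin, the founding AMPA receptor partner) and Cacng7 differed by 0.07 and -0.20 and had the widest transgenic spread of the family, with an SD of 0.69 each. Cacng7 stood at 9.69, 9.64 and 9.64 in wild type and at 8.66, 9.77 and 9.93 in transgenic lesions, so that transgenic replicate 1 alone set the sign, which turned to 0.19 without it. Cacng1 and Cacng6, subunits known from muscle, lay below the median probe set and differed by -0.24 and 0.24.

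Many channel genes differed between the transgenic arrays. Transgenic replicate 1 was the lowest of the 6 arrays for 16 of the 32 genes (50.0%), and all 16 had means above the median probe set. It was the lowest for 22.3% of all probe sets and for 32.5% of those above the median probe set. It lay below every wild type array for 19 genes (31.7% of all probe sets) and above every one for 6 (34.7%). Among the 24 genes above the median probe set it lay below for 17 (41.7% of the brighter probe sets) and above for 3 (29.7%). Transgenic replicate 2 was the highest array for 11 genes (34.4%, beside 26.4% of all probe sets). All 11 were among the 24 genes above the median probe set, beside 34.3% of the brighter probe sets. Transgenic replicate 2 lay above every wild type array for 16 genes (36.2% of all probe sets) and below for 8 (35.4%). Among those 24 genes it lay above for 15 (45.1% of the brighter probe sets) and below for 5 (30.9%). Transgenic replicate 3 was above for 11 (27.3% of all probe sets) and below for 9 (28.7%). Among the 24 brighter genes it was above for 10 (30.4% of the brighter probe sets) and below for 6 (29.1%). The SD was larger in transgenic than in wild type lesions for 25 of the 32 genes, beside 71.6% of all probe sets, with medians of 0.32 and 0.15.

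Expressed as the median over the 32 genes of the deviation from the mean of the 6 arrays, the channels were at -0.09, 0.08 and 0.11 on wild type arrays 1, 2 and 3. On transgenic arrays 1, 2 and 3 they were at -0.28, 0.19 and 0.03. General neuron markers were at -0.20, -0.06 and 0.00 in wild type and -0.17, 0.32 and 0.17 in transgenic lesions. Both sets were low in wild type replicate 1 and transgenic replicate 1 and highest in transgenic replicate 2. Their order otherwise differed: neuron markers were lowest in wild type replicate 1, and only for them did transgenic replicate 3 exceed wild type replicates 2 and 3. Transgenic replicate 1 was lowest for oligodendrocyte (-0.95), striatal neuron (-0.90), astrocyte (-0.53), oligodendrocyte precursor (-0.50) and endothelium and mural cell markers (-0.36). It was not lowest for interneuron (0.12) or microglia and macrophage markers (-0.13). For striatal neuron markers transgenic replicate 3 was close by at -0.87. Their list mean was lowest in wild type replicate 1 (5.99, beside 6.12 in transgenic replicate 1). What sets transgenic replicate 1 apart was not tested. Without it, 11 of the 32 genes had an unadjusted p under 0.05 in limma (34.4%, beside 12.5% of all probe sets), and 0 passed when adjusted; Scn2a, Cacna1a, Cacna1f, Cacna2d1, Cacng2 and Cacng3 joined and Scn3b left. Without transgenic replicate 2, the number of genes with higher means fell from 17 to 10, and the medians of Cav2, Cav3, beta and gamma calcium channel genes turned to -0.05, -0.04, -0.05 and -0.19. The median of the sodium channel pores turned to -0.01 without transgenic replicate 1, that of the gamma genes to -0.06 without transgenic replicate 3, and that of the alpha2delta genes ran from -0.31 without wild type replicate 1 to 0.17 without wild type replicate 3.

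**Figure D3:**
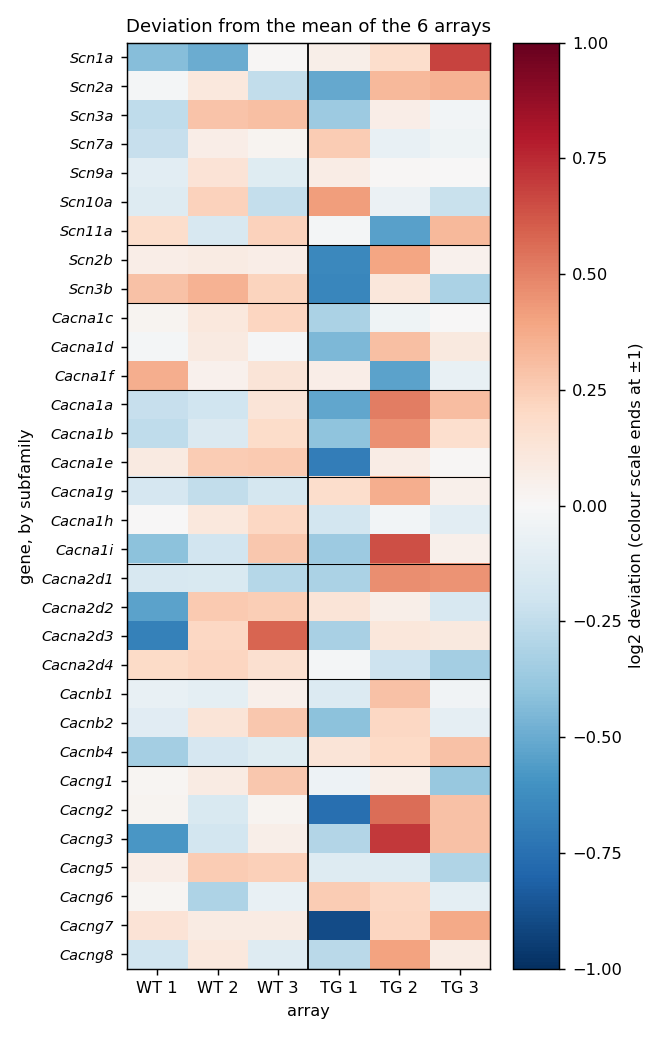
Deviation of each of the 32 channel genes (rows, by subfamily) from its mean over the 6 arrays (columns; WT wild type, TG transgenic, with replicate numbers), in log2 units from blue (low) to red (high). The column of transgenic replicate 1 holds the lowest value of 16 genes, while Scn1a, Cacna1g and Cacnb4 are above every wild type array on all 3 transgenic arrays.

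**Figure D4:**
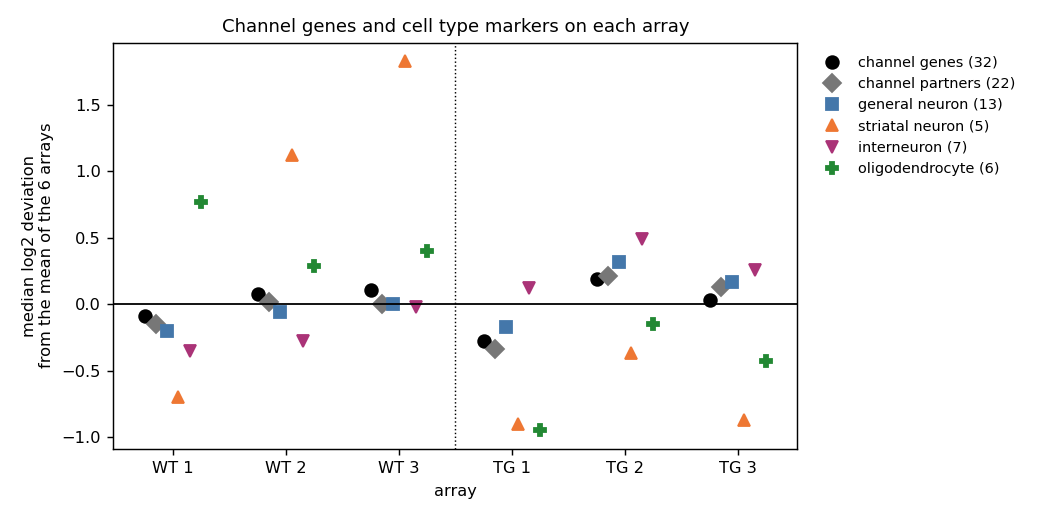
Median log2 deviation from the mean of the 6 arrays (y axis) on each array (x axis) for the 32 channel genes, 22 partner genes and 4 lists of cell type markers (number of genes in brackets). The channel genes are lowest in transgenic replicate 1 (-0.28) and highest in transgenic replicate 2 (0.19), and the striatal markers are high only in wild type replicates 2 and 3.

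Genes that anchor, modify or share signals with these channels were read from a list of 26, of which 22 were measured. Of these, 12 were higher and 10 lower, with a median difference of 0.01, and 1 had an unadjusted p under 0.05 in limma (4.55%, beside 8.87% of all probe sets). That gene was Cabp1, a calcium-binding protein that acts on P/Q-type and L-type channels. It stood at 5.63, 5.80 and 6.01 in wild type and at 6.66, 6.39 and 6.52 on transgenic arrays 1, 2 and 3. The groups were 0.38 apart, and the difference of 0.71 (SE 0.161) was 1.64-fold, at an unadjusted p of 0.00279 and an adjusted p of 0.400. Ank3 and Sptbn4, anchors of the axon initial segment, showed no such gap and differed by -0.18 and 0.06. The groups of Ank2 overlapped as well, with a difference of -0.22. The intracellular growth factors that bind sodium channels differed by 0.00 for Fgf11, 0.41 for Fgf12, 0.05 for Fgf13 and 0.22 for Fgf14. Rims1 and Rims2, which hold calcium channels at release sites, differed by -0.01 and 0.03.

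Family genes outside the 32 were Scn8a, the pore of nodes of Ranvier, which differed by 0.04 (SE 0.186), and Cacng4, a gamma gene of oligodendrocyte precursors, which differed by -0.48 (SE 0.200, unadjusted p 0.0468, adjusted p 0.557 in limma). Scn4b, a beta subunit enriched in striatum, gave 5.69, 8.07 and 8.73 in wild type and 6.79, 6.95 and 6.46 in transgenic lesions, high where striatal markers were high. Cacna1s, the muscle L-type pore, differed by 0.02.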

How the data were processed

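The authors deposited intensities made with RMA; the submitters' processing notes also name Affymetrix Expression Console. The values were on a linear scale (lowest 3.73, array medians 40.4 to 48.3) and were turned to log2 without a pseudocount. The sources used here name no software version, genome build or scan date and hold no detection calls. The platform annotation gave 1 symbol for 23521 of 41345 probe sets, several for 1814 and none for 16010; all entered the fit.

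The groups were compared with limma 3.58.1 in R 4.3.3 (lmFit, eBayes, two-sided, no covariate, Benjamini-Hochberg over all probe sets, threshold 0.05). SDs are over 3 arrays. Precision is limited by the number of arrays: the median half-width of a 95% interval was 0.45, a 1.36-fold difference. The step was tested on simulated data.

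Levels on every array are given for genes with an unadjusted p under 0.05, genes whose groups did not overlap, the largest absolute difference in each subfamily and those of 14 genes of well-known role that were measured; Cacna2d2 and Cacng7 were added after their values were seen. Partners were named by unadjusted p; Ank3, Ank2, Sptbn4, the Fgf and the Rims genes were named by role. The genes and lists were chosen with earlier results of these data known. Columns were matched by sample, and 0 belonged to no known sample.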

Additional observations from a re-analysis of the deposited data

How the results depend on the processing

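Of the 32 channel genes, 16 kept their direction under every alternative run, among them the 6 with an unadjusted p under 0.05, Cacna1c, Cacna1e and Cacna1h. In these 9 genes the groups did not overlap, so leaving out or weighting arrays could not turn their sign. Their kept direction is therefore no separate support. Alternatives were quantile normalization, median centring, only probe sets above the median, the mean of a gene's probe sets, a pseudocount of 16, no moderation of variances, array weights, the replicate number as a block, each array left out and, chosen after seeing the data, the 4 arrays with high Xist only (wild type against transgenic replicate 2 alone). The count of genes with an unadjusted p under 0.05 was 3 after median centring (9.38%, beside 8.32% of all probe sets), 12 with array weights (37.5%, beside 26.1%), 10 on the Xist-high arrays (31.2%, beside 25.6%) and between 1 and 11 with single arrays left out (4.91% to 12.5% of all probe sets). No overlap was found in 4 genes after median centring (12.5%, beside 15.1%), 24 on the Xist-high arrays (75.0%, beside 71.6%) and 9 to 17 with single arrays left out (28.1% to 53.1%, beside 22.4% to 33.1%). Array weights, which gave transgenic replicate 3 a weight of 7.67 against 0.284 and 0.258 for replicates 1 and 2, let 7 channel genes pass the adjusted threshold, where 2611 probe sets passed. Partner genes with an unadjusted p under 0.05 numbered 2 without moderation, 8 with array weights, 6 on the Xist-high arrays and 1 to 6 with single arrays left out. Subfamily medians moved on the Xist-high arrays to 0.56 for Cav3, 0.53 for Cav2, 0.33 for Cav beta, 0.32 for gamma, 0.07 for Nav beta, 0.07 for alpha2delta and -0.01 for the sodium channel pores. With single arrays left out they ran from -0.01 to 0.15 for the sodium channel pores, -0.57 to -0.12 for Nav beta, -0.30 to -0.14 for Cav1, -0.05 to 0.38 for Cav2, -0.04 to 0.40 for Cav3, -0.31 to 0.17 for alpha2delta, -0.05 to 0.17 for Cav beta and -0.19 to 0.19 for gamma. After median centring alpha2delta was 0.02. The cause of these shifts was not tested.

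The replicate numbers did not pair the arrays: deviations of same-numbered arrays correlated at 0.01, -0.10 and -0.07, and 0 of 6 arrays correlated best with their own number. With the replicate block, 3 genes (9.38%, beside 7.25% of all probe sets) had an unadjusted p under 0.05.

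Signs turned in 16 genes with small or unstable differences. After median centring Cacna1d was 0.02. With array weights Scn7a was 0.00, Scn10a -0.18, Scn11a 0.24, Cacna1d 0.06, Cacna2d2 -0.17, Cacna2d3 0.01 and Cacng7 0.23. On the Xist-high arrays Scn7a was -0.02, Scn10a -0.01, Scn2b 0.32, Cacna1d 0.28, Cacna2d3 0.08, Cacnb2 0.11 and Cacng7 0.11. With single arrays left out the ranges were -0.04 to 0.39 for Scn2a, -0.01 to 0.15 for Scn7a, -0.09 to 0.23 for Scn10a, -0.36 to 0.07 for Scn11a, -0.37 to 0.15 for Scn2b, -0.20 to 0.18 for Cacna1d, 0.00 to 0.51 for Cacna1a, -0.05 to 0.38 for Cacna1b, -0.04 to 0.46 for Cacna1i, -0.25 to 0.15 for Cacna2d2, -0.43 to 0.19 for Cacna2d3, -0.05 to 0.17 for Cacnb1, -0.19 to 0.46 for Cacng2, -0.44 to 0.19 for Cacng7 and -0.02 to 0.31 for Cacng8.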

Other observations

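Channel genes that lie side by side or close to each other on a chromosome in the RefSeq gene table (GRCm38.p6) differed in the same direction at some sites and in opposite directions at others. On chromosome 2 the order was Scn3a, Scn2a, Scn1a, Scn9a and Scn7a, with 3 protein-coding genes between Scn2a and Scn1a and 0 between the other neighbours, and with differences of -0.22, 0.10, 0.60, 0.07 and 0.09 (transgenic minus wild type, log2). On chromosome 9, Scn10a and Scn11a have 0 protein-coding genes between them and differed by 0.10 and -0.16. On chromosome 7, Cacng7, Cacng8 and Cacng6 follow each other without another protein-coding gene between them and differed by -0.20, 0.14 and 0.24. On chromosome 11, Cacng1 and Cacng5 are separated by 1 protein-coding gene and differed by -0.24 and -0.37. On chromosome 6, Cacna1c and Cacna2d4 are also separated by 1 protein-coding gene and differed by -0.24 and -0.37. These are descriptions of single genes, and no test of neighbourhood was made.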
